A study of Homo sapiens with 4 samples.

Results

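The nuclear RNAs NEAT1 and MALAT1 and the mRNAs of the paraspeckle proteins SFPQ, NONO, PSPC1 and RBM14 were followed through mRNA-seq of HepG2 cells, a hepatocellular carcinoma line. These 6 gene names were chosen by the level of NEAT1 in these same libraries, which was higher with melatonin at both times. They matched 7 of the 58302 gene entries, since MALAT1 names both a lincRNA entry and a small misc_RNA entry of 95 bp inside it, which had 0 reads in every library. The remaining 6 entries had an FPKM (fragments mapped to a gene, scaled for gene length and library size) of at least 1 in every library. Wild-type HepG2 cells were treated with 1 mM melatonin or with DMSO, the solvent control, for 24 h or 48 h, which gave 4 libraries. Values given in library order follow DMSO 24 h, melatonin 24 h, DMSO 48 h, then melatonin 48 h. HepG2 is an established line, so its response is that of 1 tumour-derived line. Each condition had 1 library, so no difference between conditions has a replicate check or a p-value, and the 95% intervals given with values cover counting error only.

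Paraspeckles are nuclear bodies that assemble on NEAT1. The NEAT1 locus makes a short isoform that is cleaved and polyadenylated, and a long isoform that runs on through the locus, is not polyadenylated in the usual way and is the scaffold on which a paraspeckle forms. MALAT1 is made from the neighbouring locus, collects in nuclear speckles, which hold splicing factors, and has a 3' end of the same unusual kind. SFPQ, NONO and PSPC1 belong to the DBHS family of proteins that pair with each other and bind RNA and DNA. SFPQ and NONO are needed to keep long NEAT1 stable, and RBM14, a protein with a prion-like domain, is needed for the body to assemble, while PSPC1 is a marker of paraspeckles that they can form without.

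The 3' ends are shown because they bear on which NEAT1 and MALAT1 molecules could be captured. By the paper's methods, the libraries were made from polyadenylated RNA. The window for the short NEAT1 isoform is the last 100 bases of the short NEAT1 transcripts of GENCODE 44 that reach farthest on hg38 (chr11:65426414-65426513, plus strand), with a canonical polyadenylation signal, AATAAA, in capitals. Other short transcripts end before the signal, NEAT1-201 at 65426457 and NEAT1-207 at 65426499. That signal lay 5 bases before the last base shown, and 35.2% of 54579 annotated transcript ends of the same length held it on the transcript strand (39.3% on either strand).
NEAT1 short isoform 3' end: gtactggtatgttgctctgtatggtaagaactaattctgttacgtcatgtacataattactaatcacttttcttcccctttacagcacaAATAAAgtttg

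The long NEAT1 isoform and MALAT1 end differently. The next pair shows the 100 bases of hg38 just before the tRNA-like element that is cut off each RNA (chr11:65445441-65445540 for NEAT1 and chr11:65506017-65506116 for MALAT1, both on the plus strand). Capitals mark AAAAGCAAAA, the last 10 bases of the NEAT1 stretch, and its reverse complement TTTTGCTTTT. They are an A-rich and a U-rich strand of the triple helix known to protect both ends, whose remaining strand is not marked. Both RNAs carried the U-rich match first and the A-rich match as their last bases, with 31 bases between them in NEAT1 and 26 in MALAT1. Of 54579 annotated transcript ends of 100 bases, 0.0843% held TTTTGCTTTT and 0.143% held AAAAGCAAAA on the transcript strand. Either word was in 0.225% of them, a share that is the same for both strands because the words are reverse complements, and 1 end, that of NEAT1, held both in this order. The A-rich word was taken from this same NEAT1 end, so its match there was fixed in advance. The end annotated for the longest MALAT1 transcript lies past the tRNA-like element, so MALAT1 was not among those windows with both.
NEAT1 long isoform 3' end: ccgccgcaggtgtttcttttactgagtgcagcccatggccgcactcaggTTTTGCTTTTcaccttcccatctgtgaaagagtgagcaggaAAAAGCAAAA
MALAT1 3' end: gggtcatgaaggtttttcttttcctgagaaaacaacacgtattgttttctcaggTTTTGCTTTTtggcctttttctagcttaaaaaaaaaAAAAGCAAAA

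The tRNA-like elements are the small RNAs released when RNase P cuts there, menRNA from NEAT1 and mascRNA from MALAT1 (chr11:65445541-65445598 and chr11:65506117-65506173). Capitals mark bases that were identical in a global alignment of the pair, 40 of 59 aligned columns or 67.8%. Both elements were listed at 0 reads in all 4 libraries, as were the small features that the files name NEAT1_1, NEAT1_2 and NEAT1_3. Those 3 are short stretches of 120, 105 and 159 bp near the start of the locus and are not the short and long isoforms, which the files do not separate.
menRNA element: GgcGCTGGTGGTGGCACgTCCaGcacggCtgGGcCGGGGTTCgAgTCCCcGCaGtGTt
mascRNA element: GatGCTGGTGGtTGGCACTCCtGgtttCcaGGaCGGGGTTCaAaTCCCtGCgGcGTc

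The libraries held between 21616676 and 23086025 reads on genes. The 8 hepatocyte markers all had an FPKM of at least 1 in every library, with a summed FPKM of 7025 to 8834. The summed FPKM of 5 fibroblast markers was 0.804 to 4.33, with DCN and COL3A1 at 0 in every library, that of 5 leukocyte markers 0.525 to 1.16, with CD3E at 0, and that of 4 endothelial markers 0.543 to 1.18, with KDR at 0. Mitochondrial genes took 20.0%, 16.6%, 9.77% and 11.9% of the reads in library order. Leaving mitochondrial genes out of the library size was among the scalings tried, which are taken up at the end. Any other part of theirs in the values of the members was not tested. In bulk RNA, fewer cells that make an RNA and less RNA per cell cannot be told apart.

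NEAT1 (ENSG00000245532, chromosome 11 from 65422774 to 65445540 on the plus strand, a lincRNA of 22767 bp by the files' gene length) had an FPKM of 9.89 in DMSO 24 h, 28.5 in melatonin 24 h, 13.5 in DMSO 48 h and 62.8 in melatonin 48 h. The read counts behind these levels were 4134, 13181, 6716 and 31746. Both melatonin libraries lay above both DMSO libraries, and no 2 of the 4 counting intervals overlapped. NEAT1 was 2.89-fold higher with melatonin at 24 h (95% interval 2.79 to 2.99) and 4.67-fold higher at 48 h (4.55 to 4.79). On the log2(FPKM + 1) scale, the scale on which genes are compared below, these differences were 1.44 and 2.14, and a difference of at least 1, a 2-fold step, was counted for entries with an FPKM of 1 or more in either library.

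The difference in NEAT1 was wider at 48 h than at 24 h, by a factor of 1.62 between the folds. The DMSO libraries themselves differed, NEAT1 being 1.36-fold higher in DMSO 48 h than in DMSO 24 h (1.31 to 1.41), while between the melatonin libraries it was 2.20-fold higher at 48 h (2.16 to 2.25). Both of these ratios between times kept their direction under every scaling tried. Between the DMSO libraries 485 of 13854 entries (3.5%) were at least 2-fold higher at 48 h and 4.24% lower, and 0 of the 6 members passed that step. Between the melatonin libraries 2.45% of 13489 entries were higher and 1.71% lower, and NEAT1 was the 1 member past the step, at 1.11 on the log2 scale. The lowest and the highest NEAT1 level, those of DMSO 24 h and melatonin 48 h, stood 6.35-fold apart. These values chose the group of genes and are given as a description.

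**Figure D1:**
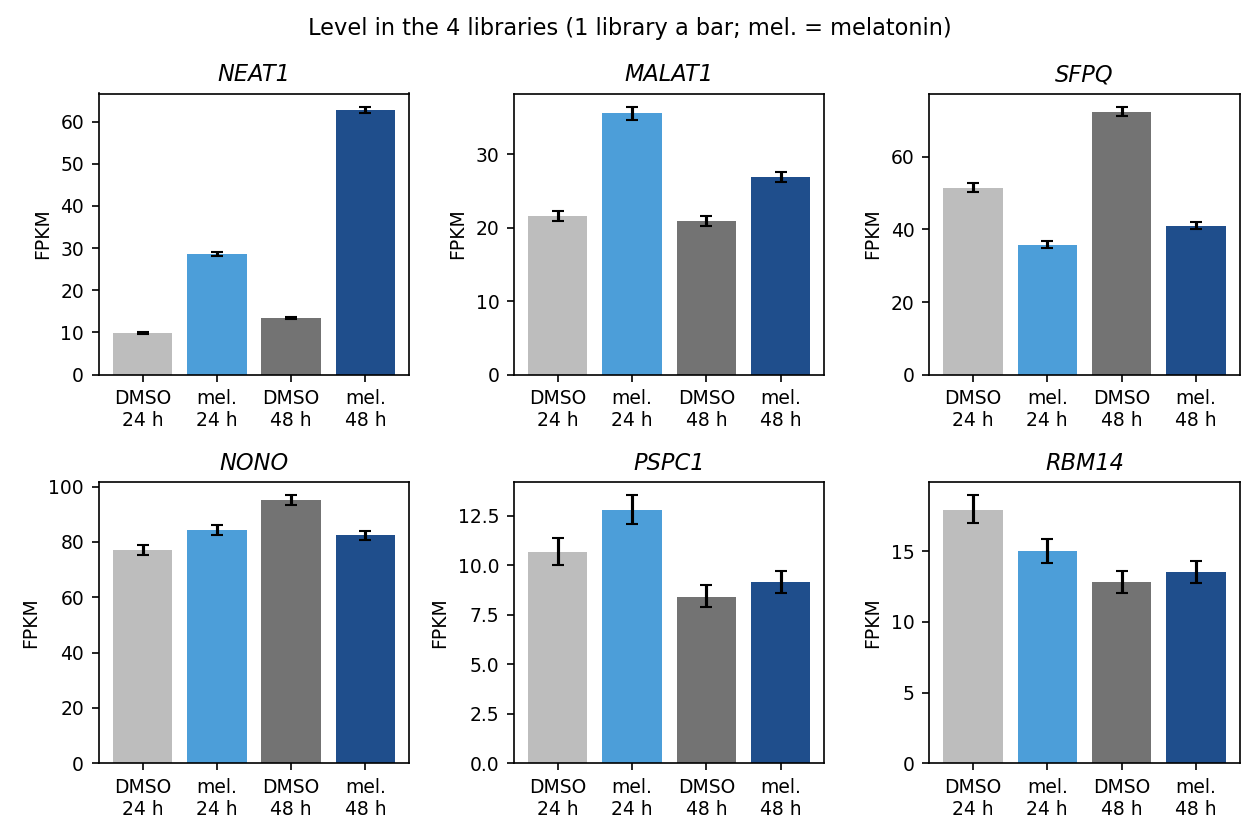
FPKM (vertical axes, each from 0) of the 6 members in the 4 libraries, with DMSO in grey and melatonin (mel.) in blue. Each bar is 1 library and its error bar the exact 95% Poisson interval of the reads. NEAT1 was highest in melatonin 48 h at 62.8, SFPQ was lower in both melatonin libraries than in both DMSO libraries, and NONO varied the least.

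At 24 h, 193 of 13582 entries (1.42%) were higher by that much with melatonin and at 48 h 330 of 13805 (2.39%). Of the 6 members, NEAT1 passed the step upward at both times and the other 5 passed it in neither direction at either time, against 2.93% of entries lower at 24 h and 3.32% at 48 h. NEAT1's place here was fixed by how the genes were chosen. At both times together, 35 of 12775 entries (0.274%) were at least 2-fold higher.

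Many of the entries past the step were short genes with few reads, unlike the members, which had 889 reads or more in every library. Among entries with at least 50 reads in either library, 24 of 11340 (0.212%) were at least 2-fold higher at 24 h and 129 of 11730 (1.1%) at 48 h, with 0.653% and 1.89% lower, and 13 of 11142 (0.117%) were so at both times. Over all entries compared, those with few reads included, 57 of 13582 (0.420%) were higher by at least as much as NEAT1 at 24 h. At 48 h 10 of 13805 (0.0724%) were. NEAT1 is counted among them and was chosen by these same values.

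**Figure D2:**
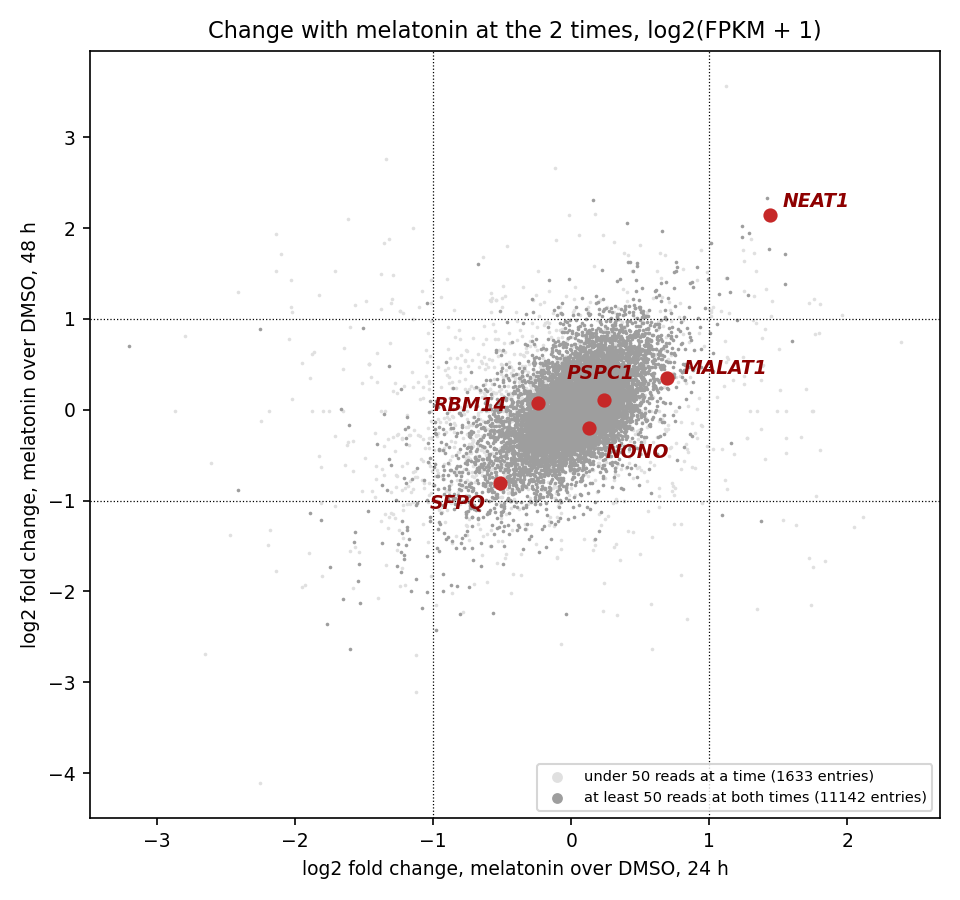
Log2 fold change of melatonin over DMSO at 24 h (horizontal) and at 48 h (vertical), on the log2(FPKM + 1) scale. Each grey point is a gene entry (dark with at least 50 reads at both times, light otherwise), red points are the 6 members and dotted lines mark a 2-fold difference. NEAT1 stands at 1.44 and 2.14 in the upper right, and the other 5 members lie inside the dotted lines at both times.

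Among 7493 lincRNA entries, NEAT1 ranked 18th by FPKM in DMSO 24 h, 5th in melatonin 24 h, 16th in DMSO 48 h and 3rd in melatonin 48 h. By reads, which are not divided by gene length, NEAT1 ranked 2nd, 1st, 2nd and 1st in the same order. Its reads made up 6.97%, 18.3%, 7.19% and 28.6% of all lincRNA reads in the same order. With NEAT1 left out, lincRNA reads numbered 55195, 58906, 86736 and 79336, so the remaining lincRNAs together did not follow its order. Among all gene entries NEAT1 ranked 712th by reads in DMSO 24 h and 61st in melatonin 48 h.

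The FPKM of NEAT1 divides its reads by the whole locus, as if every molecule were the long isoform. GENCODE 44 lists 9 NEAT1 transcripts, of which 1 reaches the long end and 4 end together between 65426457 and 65426513. Were all reads from the short transcript NEAT1-201 of 3441 bases, the level would be 65.4, 189, 89.0 and 415 in library order. With the long transcript of 22743 bases it would be 9.90, 28.6, 13.5 and 62.9. The folds between libraries are the same under each length if that length holds in every library, but the standing of NEAT1 against other genes is not. Since the isoforms are not separated, more NEAT1 molecules and a shift from short to long ones cannot be told apart in the folds.

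MALAT1 (ENSG00000251562, chromosome 11 from 65497762 to 65506516 on the plus strand, 8755 bp) had an FPKM of 21.6 in DMSO 24 h, 35.6 in melatonin 24 h, 20.9 in DMSO 48 h and 26.9 in melatonin 48 h, from 3473, 6318, 4011 and 5230 reads. Both melatonin libraries lay above both DMSO libraries, whose counting intervals overlapped each other. The RNA was 1.65-fold higher with melatonin at 24 h (1.58 to 1.72) and 1.29-fold higher at 48 h (1.24 to 1.34), or 0.69 and 0.35 on the log2 scale. An upward difference at least as large was found in 2.67% of entries at 24 h and in 18.4% at 48 h. Unlike NEAT1, MALAT1 was lower in melatonin 48 h than in melatonin 24 h, by a ratio of 0.756 (0.729 to 0.785). Between the DMSO libraries the ratio was 0.967 (0.924 to 1.01), and its log2 difference of -0.05 became 0.45 after rescaling to TPM (FPKM divided by its sum in the library), which moved the median of all entries in that comparison by 0.46, and 0.11 when libraries were scaled by their total of recovered reads, which moved it by 0.13. Relative to the median under TPM the difference was -0.01.

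With its reads divided by the whole locus, NEAT1 stood below MALAT1 in 3 libraries and above it in 1. In reads alone it was above MALAT1 in every library (4134 against 3473, 13181 against 6318, 6716 against 4011 and 31746 against 5230). At the length of the short transcript NEAT1 would also stand above MALAT1 in every library. The ratio of their FPKM within a library, which does not depend on library scaling, was 0.458 in DMSO 24 h (0.437 to 0.479), 0.802 in melatonin 24 h (0.779 to 0.827), 0.644 in DMSO 48 h (0.619 to 0.670) and 2.33 in melatonin 48 h (2.27 to 2.40). It was higher with melatonin than with DMSO at each time.

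Because long NEAT1 and MALAT1 lack a usual poly(A) tail, other RNAs without a tail were read beside them, chosen after their values were seen. RN7SL2, an RNA of the signal recognition particle, had an FPKM of 4982 in DMSO 24 h, 5254 in melatonin 24 h, 6510 in DMSO 48 h and 8064 in melatonin 48 h. It was 1.05-fold higher with melatonin at 24 h and 1.24-fold higher at 48 h. The summed FPKM of 86 replication-type histone gene entries, whose mRNAs mostly end in a stem-loop, was 56.9, 63.6, 71.9 and 66.0 in the same order. These levels moved less between DMSO and melatonin than NEAT1 did. The RN7SL2 ratio of 1.24 at 48 h lay at the lower end of the counting interval of MALAT1 at that time (1.24 to 1.34). At 24 h the RN7SL2 ratio of 1.05 lay below the MALAT1 interval (1.58 to 1.72). The part of RNA without a tail in the NEAT1 and MALAT1 values was not tested.

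SFPQ (ENSG00000116560, chromosome 1 from 35176378 to 35193148 on the minus strand, 7426 bp) had an FPKM of 51.5 in DMSO 24 h, 35.8 in melatonin 24 h, 72.4 in DMSO 48 h and 40.9 in melatonin 48 h, from 7021, 5392, 11788 and 6750 reads. Both melatonin libraries lay below both DMSO libraries and no 2 counting intervals overlapped. The mRNA was lower with melatonin, at 0.695 of the DMSO level at 24 h (0.671 to 0.720) and 0.566 at 48 h (0.549 to 0.583), or -0.51 and -0.81 on the log2 scale. Lower values than these were uncommon but not rare, with 8.98% of entries at or below SFPQ at 24 h and 5.45% at 48 h. From DMSO 24 h to DMSO 48 h SFPQ was 1.41-fold higher (1.36 to 1.45), and from melatonin 24 h to melatonin 48 h 1.14-fold higher (1.10 to 1.19).

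NONO (ENSG00000147140, chromosome X from 71283192 to 71301168 on the plus strand, 5292 bp), the partner of SFPQ, had the highest member FPKM in every library. That place holds with NEAT1 scaled by the whole locus. In reads, NEAT1 was above NONO in melatonin 24 h (13181 against 9051) and in melatonin 48 h (31746 against 9675). The FPKM of NONO was 77.1 in DMSO 24 h, 84.3 in melatonin 24 h, 95.01 in DMSO 48 h and 82.3 in melatonin 48 h, from 7487, 9051, 11027 and 9675 reads. The melatonin libraries lay between the DMSO libraries and their counting intervals overlapped. With melatonin the level was 1.09-fold that of DMSO at 24 h (1.06 to 1.13) and 0.867 of it at 48 h (0.843 to 0.891). The log2 differences were 0.13 and -0.20, and 63.6% and 59.8% of entries had a difference at least that large in either direction.

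PSPC1 (ENSG00000121390, chromosome 13 from 19674752 to 19783019 on the minus strand, 4817 bp) was the least abundant of the DBHS mRNAs. Its FPKM was 10.7 in DMSO 24 h, 12.8 in melatonin 24 h, 8.42 in DMSO 48 h and 9.13 in melatonin 48 h, from 944, 1250, 889 and 977 reads. It was 1.199-fold higher with melatonin at 24 h (1.10 to 1.31), and at 48 h the ratio of 1.09 had an interval that spanned 1 (0.990 to 1.19). Both levels at 48 h were below both levels at 24 h, but the DMSO difference between times, -0.31 on the log2 scale, was 0.16 after rescaling to TPM, and -0.31 relative to the median of all entries under TPM.

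RBM14 (ENSG00000239306, chromosome 11 from 66616582 to 66627347 on the plus strand, 3937 bp) had an FPKM of 17.96 in DMSO 24 h, 15.0 in melatonin 24 h, 12.8 in DMSO 48 h and 13.5 in melatonin 48 h, from 1298, 1200, 1105 and 1183 reads. DMSO 24 h stood above the other 3 libraries. With melatonin the level was 0.837 of that of DMSO at 24 h (0.773 to 0.906) and 1.06-fold at 48 h, where the interval spanned 1 (0.973 to 1.15). DMSO 48 h was at 0.713 of DMSO 24 h (0.657 to 0.773), a log2 difference of -0.46 that was 0.02 after rescaling to TPM and -0.44 relative to the median under TPM.

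Ordered by FPKM with NEAT1 scaled by the whole locus, NONO came first in every library and SFPQ second in 3 of them. In DMSO 24 h the order after these was MALAT1, RBM14, PSPC1 and NEAT1, the last 2 with overlapping counting intervals. In melatonin 24 h SFPQ and MALAT1 overlapped, at 35.8 and 35.6, and were followed by NEAT1, RBM14 and PSPC1. In DMSO 48 h NEAT1 and RBM14 overlapped, at 13.5 and 12.8, below MALAT1 and above PSPC1. In melatonin 48 h NEAT1 stood second at 62.8, above SFPQ at 40.9, and no neighbours in the order overlapped. At the length of the short transcript NEAT1 would stand higher in the order in every library.

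Ratios within a library set the members against each other. NEAT1 over SFPQ was 0.192 in DMSO 24 h (0.185 to 0.1996) and 0.186 in DMSO 48 h (0.180 to 0.192), close to each other, and 0.797 in melatonin 24 h (0.772 to 0.823) and 1.53 in melatonin 48 h (1.49 to 1.58). NONO over SFPQ was 1.496, 2.36, 1.31 and 2.01 in library order. PSPC1 over SFPQ was 0.207, 0.357, 0.116 and 0.223 in that order. Both ratios to SFPQ were higher with melatonin at each time.

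Of the summed FPKM of the DBHS mRNAs, SFPQ made up 37.0% in DMSO 24 h, 26.9% in melatonin 24 h, 41.2% in DMSO 48 h and 30.9% in melatonin 48 h. The sum over SFPQ, NONO, PSPC1 and RBM14 was 157, 148, 189 and 146 FPKM. NEAT1 amounted to 0.0629, 0.193, 0.0713 and 0.430 of that sum in the 4 libraries.

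**Figure D3:**
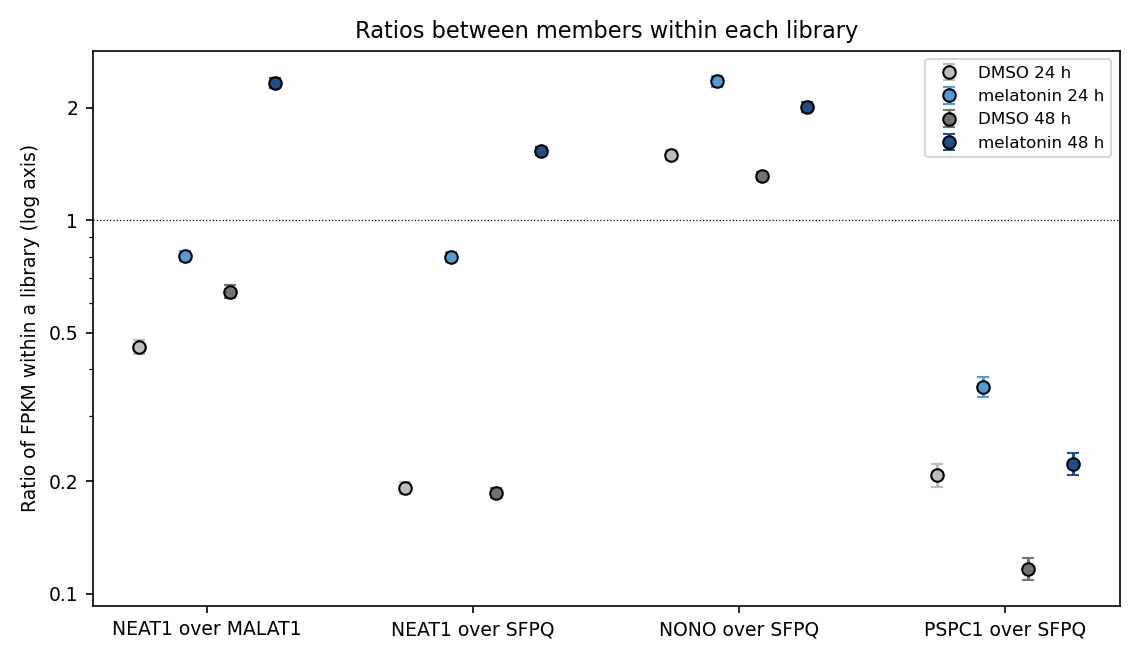
Ratio of FPKM between pairs of members within each library (vertical log axis), with the exact 95% binomial interval of the reads; each point is 1 library, DMSO in grey and melatonin in blue. The FPKM of NEAT1 is taken over the whole locus. On that scale NEAT1 over SFPQ was 0.192 and 0.186 with DMSO and 0.797 and 1.53 with melatonin, and NEAT1 exceeded MALAT1 in melatonin 48 h only.

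Entries that overlap or resemble the members took few reads. The antisense entry PSPC1-AS2 had 13, 2, 19 and 10 reads and the read-through entry RBM14-RBM4 had 18, 19, 24 and 30 in library order. The processed pseudogene NONOP2 had 66, 30, 138 and 31 reads, and whether those came from NONO is uncertain. SFPQP1 had 0 reads in every library. The treatment of strand in counting is not given in the sources used here, so reads of an antisense partner cannot be told apart from those of a member.

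No other entry around NEAT1 was 2-fold higher with melatonin. MALAT1 starts 52.2 kb past the end of NEAT1, and the window of 250 kb on either side of the pair held 42 other entries, of which 19 reached an FPKM of 1 at each time. At 24 h 11 of these were higher and 8 lower with melatonin, with a median log2 difference of 0.01 beside 0.02 over all entries, and at 48 h 7 were higher and 12 lower, with a median of -0.21 beside -0.02. The 1 that was 2-fold lower at 24 h, the microRNA entry MIR4489, had 2 reads in DMSO 24 h and 0 in melatonin 24 h.

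FRMD8, the nearest coding gene before NEAT1, encodes a protein that works with the iRhom proteins in shedding at the cell surface. Its FPKM was 5.53 in DMSO 24 h, 5.58 in melatonin 24 h, 6.49 in DMSO 48 h and 5.49 in melatonin 48 h, log2 differences of 0.01 and -0.21. The values farthest from 0 at 48 h belonged to LTBP3, which binds latent TGF-beta, with FPKM 19.1, 13.1, 21.6 and 11.3 (-0.51 at 24 h and -0.87 at 48 h), and POLA2, a subunit of DNA polymerase alpha, with FPKM 2.89, 3.32, 0.741 and 2.0999 (0.15 and 0.83). In the same window the protease CAPN1 stood at -0.38 and -0.53, and RNASEH2C, a subunit of ribonuclease H2, at 0.40 and 0.60. The transcription factor subunit RELA stood at 0.01 and -0.47.

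The remaining coding entries of the window with an FPKM of at least 1 stayed within 2-fold at both times. CDC42EP2, EHBP1L1, PCNX3, SIPA1 and KAT5 had log2 differences of 0.36, 0.03, 0.14, 0.22 and 0.10 at 24 h and of 0.11, -0.01, -0.08, 0.10 and 0.28 at 48 h. DPF2, MAP3K11, TIGD3 and SSSCA1 had -0.01, -0.02, -0.05 and 0.39 at 24 h and -0.32, -0.29, 0.50 and -0.25 at 48 h. The antisense entries AP003068.2 and SSSCA1-AS1, each with 140 reads or fewer in any library, had -0.11 and 0.24 at 24 h and -0.74 and -0.75 at 48 h.

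**Figure D4:**
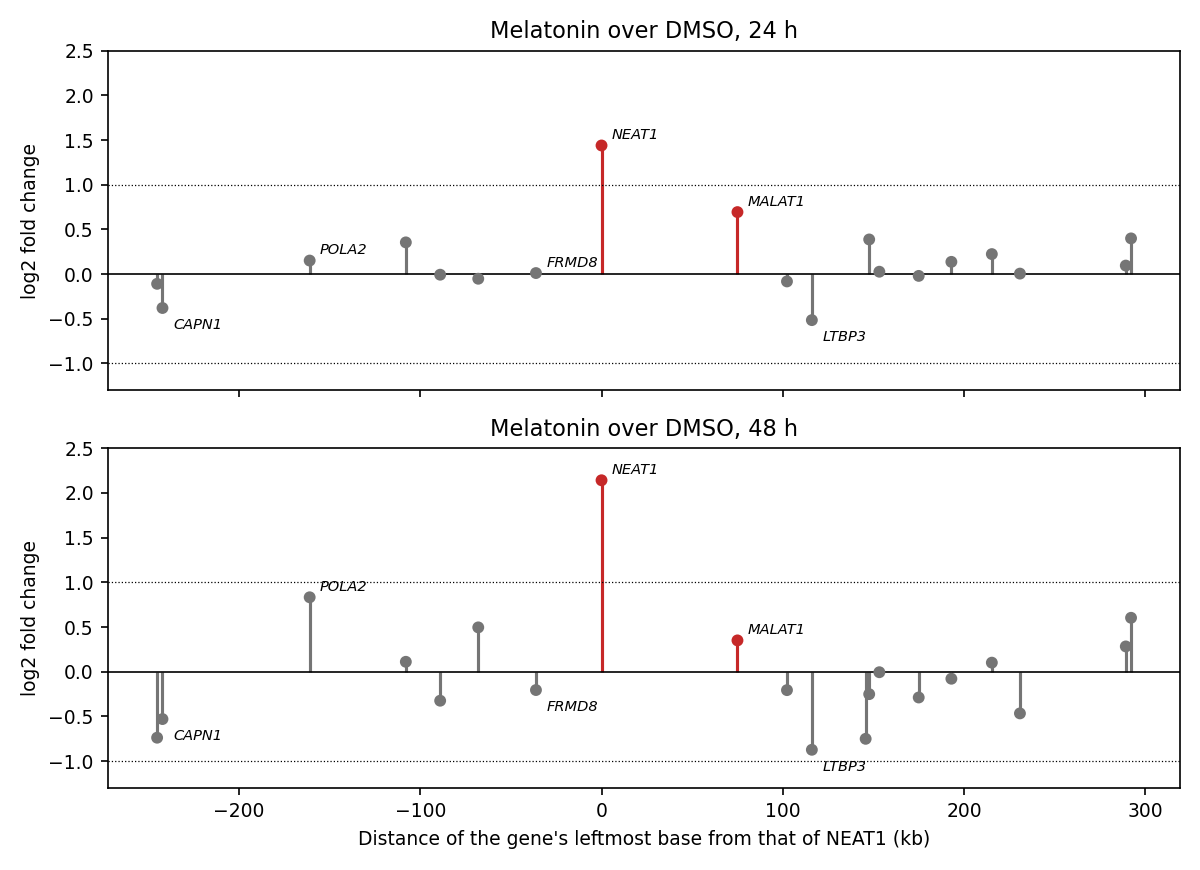
Log2 fold change of melatonin over DMSO (vertical) of entries around NEAT1 with an FPKM of at least 1 and at least 50 reads in either library, by distance in kb of their leftmost base from that of NEAT1 (horizontal), at 24 h (top) and 48 h (bottom). NEAT1 and MALAT1 are red and dotted lines mark a 2-fold difference. The other entries lie between -0.51 and 0.40 at 24 h, and at 48 h between -0.87 and 0.83.

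None of the other paraspeckle proteins compared reached a 2-fold difference with melatonin. Of 5 further proteins that paraspeckles need, 0 of 5 passed the 2-fold step at either time, 3 were lower at 24 h and 4 at 48 h, with medians of -0.21 and -0.13, where 53.5% and 47.5% of all entries were above 0 and the medians of all entries were 0.02 and -0.02. DAZAP1, an RNA-binding protein, had an FPKM of 21.6 in DMSO 24 h, 14.9 in melatonin 24 h, 22.5 in DMSO 48 h and 14.5 in melatonin 48 h (log2 differences -0.51 and -0.60). HNRNPK, which steers NEAT1 toward the long isoform, had 108, 88.5, 105 and 86.9 (-0.29 and -0.27). HNRNPH3 had 0.02 and -0.12, and the chromatin remodeller SMARCA4 had -0.21 and -0.13.

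Of 30 entries for other paraspeckle proteins, 23 were compared at 24 h and 24 at 48 h and 0 passed the 2-fold step at either time. At 24 h 17 were lower with a median of -0.15, and at 48 h 20 were lower with a median of -0.33. EWSR1, a FET-family RNA-binding protein, had an FPKM of 23.3, 17.5, 36.5 and 19.4 in library order (-0.39 and -0.88), a pattern like that of SFPQ. The splicing factor HNRNPM had 73.1, 46.7, 55.5 and 34.99 (-0.63 and -0.65), AKAP8L had -0.27 and -0.61 and SS18L1 -0.18 and -0.60. CIRBP, a cold-inducible RNA-binding protein and the highest of the list at both times, had 13.5, 22.2, 20.7 and 31.8 (0.67 and 0.59). MATR3 has 2 entries in the files, both at an FPKM of 1.05 or less, so its reads may be divided between them.

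The choice between short and long NEAT1 is made by the 3' end processing machinery, which cleaves near signals such as the one printed above. Of 16 such factors, 0 of 16 passed the 2-fold step with melatonin at either time, with medians of -0.07, which was 0.10 after rescaling to TPM, and -0.12. PCF11, a termination factor, was the lowest at both times, with an FPKM of 4.98 in DMSO 24 h, 2.44 in melatonin 24 h, 8.67 in DMSO 48 h and 4.44 in melatonin 48 h (-0.80 and -0.83). PABPN1, the nuclear poly(A)-binding protein, had 28.9, 24.99, 67.9 and 39.4 (-0.20 and -0.77). Between the DMSO libraries it was the 1 factor past 2-fold, against 3.5% of all entries higher at 48 h. CPSF3, the endonuclease of the complex, had 13.4, 14.5, 9.96 and 13.3 (0.11 and 0.39), and WDR33, which reads the AATAAA signal, had -0.16 and -0.40.

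For the tailless 3' ends, 14 entries for RNase P subunits, ELAC2, METTL16 and RNA decay factors were read, of which 12 were compared at 24 h and 13 at 48 h. None passed the 2-fold step, and the medians were 0.07 and 0.01, the latter -0.04 after rescaling to TPM. The RNase P subunit POP5 had an FPKM of 7.32, 10.0, 4.76 and 6.78 in library order (0.40 and 0.43). The other RNase P subunits named by the rule, POP4, RPP40 and RPP30, had -0.01, 0.05 and -0.04 at 24 h and 0.31, 0.32 and -0.33 at 48 h.

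Nuclear speckle proteins, with which MALAT1 collects, gave 12 of 16 lower with melatonin at each time and 0 of 16 past 2-fold, with medians of -0.04, which was 0.13 after rescaling to TPM and 0.02 with the total of recovered reads as the scale, and -0.17. LUC7L3 had an FPKM of 15.0, 12.4, 36.8 and 20.4 in library order (-0.26 and -0.82), and PNN 60.6, 51.6, 117 and 70.1 (-0.23 and -0.73). Both were higher in each 48 h library than in the 24 h library of the same treatment. The kinase PRPF4B had -0.32 and -0.57 and the splicing factor SRSF2 -0.42 and -0.40.

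None of the other long non-coding RNAs in a list written for comparison was 2-fold higher with melatonin. The list is short beside the 7493 lincRNA entries and does not speak for the rest of them. Of the 19 listed entries, 10 were compared at 24 h and 12 at 48 h, 4 and 3 of them above 0. The medians were -0.10, which was 0.01 after rescaling to TPM, and -0.07. DANCR, a host of small nucleolar RNAs, was the 1 past 2-fold, at 48 h, against 3.32% of all entries lower. Its FPKM was 19.05, 14.1, 33.8 and 15.7 (-0.41 and -1.06). LINC-PINT had -0.04 and -0.81, PVT1 -0.19 and -0.56 and CYTOR -0.31 and -0.34. Between the DMSO libraries the list stood higher at 48 h, with a median of 0.60 and 3 of 12 past 2-fold, against 3.5% of all entries.

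Factors that are known to act on NEAT1 transcription were near 0 with melatonin at 24 h, with a median of 0.01 over 11 genes, and lower at 48 h, where 10 of 11 were below 0 with a median of -0.22. BRCA1 was the exception and the 1 past 2-fold, against 2.39% of all entries higher at 48 h. Its FPKM was 6.22 in DMSO 24 h, 8.09 in melatonin 24 h, 1.70 in DMSO 48 h and 4.52 in melatonin 48 h (0.33 and 1.03). It was lowest in DMSO 48 h. RUNX1 had -0.20 and -0.49, RELA 0.01 and -0.47, and HIF1A, the hypoxia factor, -0.02 and -0.39.

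Target genes of pathways known to raise NEAT1 included none that was 2-fold higher with melatonin. Of 16 p53 targets, 8 were higher and 8 lower at 24 h (median 0.00), with 0 past 2-fold, and 6 were higher and 10 lower at 48 h (median -0.17), with 2 past 2-fold downward against 3.32% of all entries. CDKN1A, an inhibitor of the cell cycle, had an FPKM of 25.3, 16.2, 60.3 and 26.6 (-0.61 and -1.15), and BBC3, which promotes apoptosis, 6.05, 6.76, 19.1 and 8.44 (0.14 and -1.09). AEN had -0.34 and -0.67 and ZMAT3 -0.39 and -0.50. The highest of the list were GDF15 at 24 h (0.52, and 0.32 at 48 h) and MDM2 at 48 h (0.40, and 0.17 at 24 h), named after their values were seen.

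Of 15 hypoxia targets, 14 were compared at 24 h (12 lower, median -0.54) and 13 at 48 h (9 lower, median -0.16). CA9, a carbonic anhydrase, was the 1 past 2-fold at each time and was lower at both, against 2.93% and 3.32% of all entries lower. Its FPKM was 3.59, 1.00, 3.69 and 0.674 (-1.20 and -1.48), from only 110, 34, 135 and 25 reads. The glucose transporter SLC2A1 was higher at both times, with 284, 437, 305 and 524 (0.62 and 0.78). VEGFA had 0.07 and -0.93, DDIT4 -0.11 and -0.74 and ANGPTL4 -0.99 and -0.59.

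Of 10 heat shock targets, 8 were lower at 24 h and 7 at 48 h, with medians of -0.26 and -0.10. HSPB1, a small heat shock protein, was the 1 past 2-fold at each time, against 2.93% and 3.32% of all entries lower. Its FPKM was 22.2, 10.2, 31.6 and 9.67 (-1.05 and -1.61). HSPH1 had -0.46 and -0.43. HSPA1A and HSPA1B, near-identical copies whose reads can be divided between them, had 0.04 and 0.12 at 24 h and 0.53 and 0.87 at 48 h.

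Of the mRNAs linked to paraspeckle retention or to SFPQ, 3 of 5 entries were compared and 0 passed 2-fold. SLC7A2, an arginine transporter gene whose nuclear transcript is a known paraspeckle RNA, had an FPKM of 40.8 in DMSO 24 h, 44.4 in melatonin 24 h, 45.6 in DMSO 48 h and 41.3 in melatonin 48 h (0.12 and -0.14). DDX58, which encodes the RNA sensor RIG-I, had -0.12 and -0.26. The gene totals do not separate nuclear from cytoplasmic RNA.

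**Figure D5:**
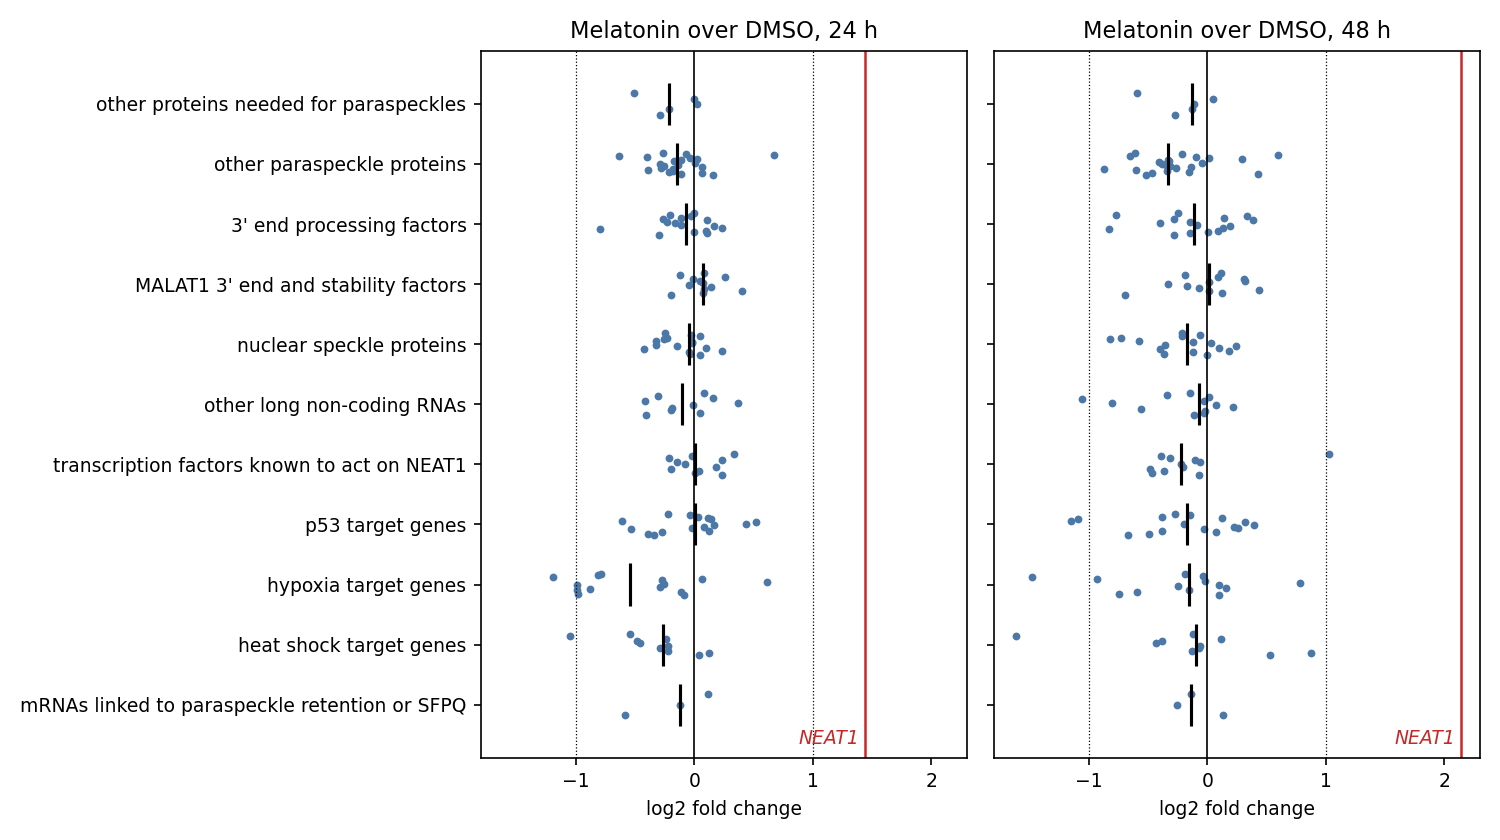
Log2 fold change of melatonin over DMSO (horizontal) of each compared entry of the 11 gene lists at 24 h (left) and 48 h (right). Each point is a gene entry, black bars are list medians, dotted lines mark a 2-fold difference and the red line is NEAT1. In every list each entry lies below NEAT1 at its time, and the list medians span -0.54 to 0.07 at 24 h, and at 48 h -0.33 to 0.01.

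The genes whose pattern over the 4 libraries was most like that of NEAT1 were sought among 11349 entries with at least 50 reads in every library, by the Euclidean distance between log2(FPKM + 1) values centred on each gene's mean. The nearest was CYP1A1, a cytochrome P450 induced by the aryl hydrocarbon receptor, at a distance of 0.654, with an FPKM of 1.24 in DMSO 24 h, 5.55 in melatonin 24 h, 4.18 in DMSO 48 h and 12.6 in melatonin 48 h. OGDHL followed at 0.738 with 1.46, 3.61, 1.35 and 5.99, and SLC43A2, an amino acid transporter, at 0.787 with 3.01, 5.78, 2.54 and 9.94. HSD17B2, a steroid dehydrogenase, stood at 0.799 with 2.65, 4.08, 3.65 and 12.9, and the chemokine CCL16 at 0.807 with 2.81, 5.15, 5.26 and 15.6. All 5 had a lower FPKM than NEAT1 in every library. They were highest in melatonin 48 h, as NEAT1 was, which follows from how they were picked. MALAT1 was at a distance of 1.69, rank 893 of 11349, and SFPQ at 2.54, rank 10889. With 4 libraries, likeness of pattern is a description of these libraries.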

How the data were processed

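HepG2 mRNA-seq was analysed from 4 libraries, 1 per condition. The paper's methods describe purified polyadenylated RNA but name a TruSeq kit for total RNA, so how RNA was selected is uncertain. The authors deposited FPKM per Ensembl gene. Their methods name MapSplice, hg38 and Cufflinks, while the submitters' processing notes name Bowtie2 2.0.6, TopHat2 2.0.9, Cufflinks 2.1.1 and Cuffdiff 2.1.1. FPKM times gene length was a whole multiple of 1 step per library for 100% of values above 0 (within 0.01 of a read), so the reads (or read pairs) per gene were recovered. Reads on genes totalled 21616676, 22850046, 23086025 and 22820651 in the order DMSO 24 h, melatonin 24 h, DMSO 48 h, then melatonin 48 h. No count test was run, because there are no replicates.

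Differences were log2((FPKM + 1)/(FPKM + 1)), compared for genes whose FPKM reached 1 in either of the compared libraries. Exact Poisson intervals (levels) and Clopper-Pearson binomial intervals (ratios), both 95%, cover counting error only. Python 3.11.15 with numpy 2.4.6, pandas 2.3.3, scipy 1.17.1 and biopython 1.88 was used, and the steps were tested on simulated data. Of the file's gene identifiers, 57532 were in GENCODE 44, and 57511 of those overlapped their hg38 position, so sequences came from hg38. The members and gene lists were chosen with earlier results of these data known. The genes named were the members, the neighbours with an FPKM of at least 1 in any library, up to 4 genes per list with the largest difference at 48 h among those with at least 50 reads in each library, list genes past 2-fold at both times, and the 5 patterns nearest to NEAT1. CIRBP, MATR3, RN7SL2 and the histone genes were added after their values were seen. A few genes that the rule names are not reported here. Alternatives were another pseudocount, scaling, filter, threshold, GC and length correction, and NEAT1 length.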

Additional observations from a re-analysis of the deposited data

Results flagged for a closer look

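NONO had a ratio of melatonin to DMSO of 1.09 at 24 h (95% interval 1.06 to 1.13) and of 0.867 at 48 h (0.843 to 0.891), on opposite sides of 1. The same held for 4 of the other named genes. SLC7A2 stood at 1.09 and 0.906, VEGFA at 1.05 and 0.505, SSSCA1 at 1.35 and 0.816, and PCNX3 at 1.10 and 0.944. In all, 5 of 72 named genes had counting intervals on opposite sides of 1 at the 2 times. With 1 library per condition the difference between the times was not tested.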

How the results depend on the processing

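NEAT1 stayed at least 2-fold higher with melatonin at both times under every alternative run. Its log2 difference at 24 h was 1.52 with a pseudocount of 0.1, 1.66 after rescaling to TPM and 1.36 after correction for GC content and gene length, and at 48 h 2.21 with that pseudocount, 2.21 without mitochondrial genes in the library size and 2.09 after the correction. Over the 6 members and 4 comparisons, 135 of 144 alternative values kept their direction, the other 9 being differences between times, and 144 of 144 kept their side of the 2-fold step. With the length of the short transcript the FPKM of NEAT1 would be 65.4, 189, 89.0 and 415 in library order. Rescaling to TPM moved the median of all entries by 0.16 for melatonin at 24 h, 0.46 between the DMSO libraries and 0.25 between the melatonin libraries, and the total of recovered reads moved the last of these by 0.11. Of 436 alternative list medians, 402 kept their direction.

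The counts behind the background shares were less stable, and the cause was not tested. Pairs below give entries higher, then lower, for melatonin at 24 h, melatonin at 48 h, DMSO 48 h against 24 h, and melatonin 48 h against 24 h, where the last comparison was added after the data were seen. They were 375 and 833, 756 and 916, 984 and 1095, and 709 and 451 with a pseudocount of 0.1. Rescaling to TPM gave 715 and 846, 1103 and 1408, 2947 and 704, and 1520 and 565. An FPKM of at least 5 gave 25 and 93, 117 and 207, 222 and 323, and 95 and 62. At least 50 reads gave 24 and 74, 129 and 222, 241 and 326, and 86 and 52. Coding genes alone gave 20 and 46, 109 and 144, 174 and 293, and 52 and 45. A 1.5-fold threshold gave 546 and 1023, 1190 and 1386, 1550 and 1746, and 912 and 816. Scaling by the total of recovered reads left 376 entries lower between the DMSO libraries. No paired analysis was possible because every condition has replicate number 1 only. A fit with time as a block, which would take the difference between the times as its error, was not run. The members had 889 reads or more in each library, and the error between cultures was not measured.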
